A study of Mus musculus with 2 samples.

Results

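The collagens are the main structural proteins of the extracellular matrix, and 44 genes encode the chains that were measured here, out of 21474 protein-coding genes with a row in the deposited tables. A gene was taken as a collagen chain where its symbol is Col, a number, the letter a and a number, so that other proteins with short collagen-like stretches and genes such as Col4a3bp are not among them. The tissue was embryonic limb (day 14.5) of the mouse strain C57BL/6J, sequenced as polyadenylated RNA in 2 libraries, each from a pool of male and female embryos with no treatment named in the labels. Both libraries belong to 1 group, so the values compare chains and libraries and no condition. The labels name 1 donor record for both libraries, leave unsaid whether each pool was a litter of its own, and name neither forelimb nor hindlimb, so the spread between the libraries may be partly technical.

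Collagen chains wind around each other into a helical molecule, and each chain needs a glycine at the start of every Gly-X-Y triplet of residues because no larger residue has room in the middle of the helix. Fibrillar collagens form the long fibres of cartilage, bone, tendon and skin; network collagens form sheets such as basement membranes; FACIT collagens sit on the surface of fibres; beaded collagens are type VI microfibrils around cells; and transmembrane collagens stay in the cell membrane. Type II, type IX and type XI collagen together make the fibres of cartilage, whereas type I, type III and type V collagen make those of most other connective tissue.

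The fibrillar class stands apart in the coding sequence by its longest Gly-X-Y run, where the other classes overlap. The coding sequence played no part in the choice of members. The classes, however, follow the known structure of the proteins, so this difference is a description and no independent result. Glycine codons are GG followed by any base, and those at the start of a Gly-X-Y triplet of a run are in capitals in the exons printed next, other glycine codons staying in lower case, each taken from the GENCODE M21 model (GRCm38). The first 4 are the first exon of 54 bases inside the long Gly-X-Y run of each of the 4 most abundant chains, and the last is an exon of Col4a1 in which a run is broken and then resumes.
Col1a1 54-base exon: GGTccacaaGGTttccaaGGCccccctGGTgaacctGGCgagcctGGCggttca
Col1a2 54-base exon: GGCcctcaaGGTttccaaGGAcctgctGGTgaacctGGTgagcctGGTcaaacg
Col2a1 54-base exon: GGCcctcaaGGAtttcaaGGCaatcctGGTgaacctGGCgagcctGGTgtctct
Col3a1 54-base exon: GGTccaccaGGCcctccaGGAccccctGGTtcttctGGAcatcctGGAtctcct
Col4a1 exon with an interruption: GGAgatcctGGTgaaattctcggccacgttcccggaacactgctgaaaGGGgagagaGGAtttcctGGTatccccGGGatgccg
Exons of this length hold 6 triplets without a break. The Col1a1 exon (chr11:94939904-94939957, plus strand) shared 43 of its 54 bases with that of Col2a1 (chr15:97996489-97996542, minus strand), 42 with that of Col1a2 (chr6:4515481-4515534, plus strand) and 35 with that of Col3a1 (chr1:45325360-45325413, plus strand). These are exons 8, 10, 8 and 6 of their models in that order, and the genes were not aligned. The shared bases therefore need not come from corresponding exons. In the Col4a1 exon (chr8:11244486-11244569, minus strand) 2 triplets end one run and 4 open the next.

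Across the 11 fibrillar genes the longest unbroken Gly-X-Y run was between 216 and 344 triplets, with a median of 338. The 9 longest belong to Col1a1, Col1a2, Col2a1, Col3a1, Col5a1, Col5a2, Col5a3, Col11a1 and Col11a2, each with 337 to 344 triplets, while Col24a1 had 216 and Col27a1 had 217. Exons of exactly 54 bases made up between 42.9% and 56.9% of the inner coding exons of the fibrillar genes. The FACIT genes Col9a2 and Col9a3 (46.7% each) and Col22a1 (45.9%) lay in the same range, while the FACIT class ran from 6.35% to 46.7%. In the network class, where interruptions let the molecule bend, the longest run was between 39 and 66 triplets and the 6 type IV genes had 16 to 24 runs each. Exons of 54 bases were rare there, at 5.88% or less of the inner coding exons of any type IV gene. The FACIT genes fell into several shapes. Col9a1, Col9a2, Col9a3 and Col22a1 each had a longest run of 113 triplets, Col12a1, Col14a1 and Col20a1 one of 32, Col16a1 one of 52 and Col19a1 one of 57. In Col12a1 only 7.63% of the codons lay in Gly-X-Y runs, and in Col9a3 76.3%. Col6a1 and Col6a2 had 87 triplets in a row, and the other 4 beaded genes had 37 to 45. The transmembrane genes had 40 to 56, Col7a1 75, Col15a1 and Col18a1 30 each, Col28a1 28 and Col26a1 23.

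**Figure D1:**
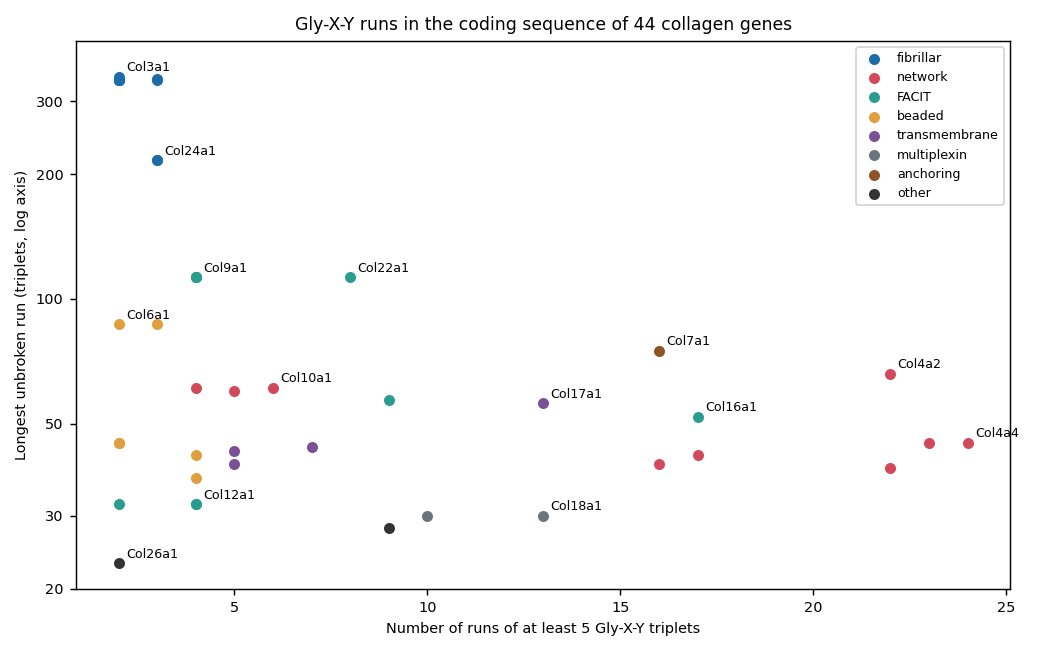
Longest unbroken Gly-X-Y run (triplets, log axis) against the number of runs of at least 5 triplets in the longest complete coding transcript of each of the 44 collagen genes, 1 point a gene, coloured by class; some points coincide. Fibrillar genes sit at the upper left with 2 or 3 runs and at least 216 triplets, and type IV genes at the right with 16 to 24 runs of at most 66 triplets.

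Replicate 1 held 110172148 and replicate 2 held 103363136 estimated counts over all genes, and a count of 0 would allow up to 3 counts, or 0.0272 and 0.0290 CPM. All 6 genes listed for limb identity had at least 1 TPM in both libraries (median 50.3 TPM), with Hoxd13 at 90.7 and 122 TPM and Prrx1 at 101.4 and 100.5 TPM, both transcription factors of limb mesenchyme; Tbx5 of the forelimb and Tbx4 and Pitx1 of the hindlimb were all among them. Of 6 genes listed for other organs (median 0.403 TPM), 2 passed, Alb at 5.7 and 1.1 TPM and Cela1 at 1.27 and 1.89 TPM, and 4 did not, Neurod6 at 1.11 and 0.16, Sftpc at 0.020 and 0.32, Nppa at 0 and 0.270 and Umod at 0 in both.

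Most collagen genes were detected in the limb. At least 1 TPM (a level scaled by transcript length and by the library's total) in both libraries was reached by 39 of 44 collagen genes, against 62.8% of all protein-coding genes. The median of the mean TPM was 71.6 over the 44 chains and 5.84 over all protein-coding genes. At least 100 TPM in both libraries was reached by 20 chains, against 5.81% of all protein-coding genes. Only Col19a1, Col28a1, Col6a4, Col4a4 and Col4a3 were below 1 TPM. Levels of the 39 chains ran over 813-fold, from Col6a5 at 1.84 TPM to Col2a1 at 1496 TPM.

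Together the chains took 0.955% of TPM in replicate 1 and 0.959% in replicate 2, with a mean of 0.957% ± 0.00288 (SD, n = 2). By estimated counts, which grow with the length of a message, the same genes took 2.72% and 2.74% of the total, a mean of 2.73% ± 0.0153 (SD, n = 2). Fibrillar genes held 64.0% ± 0.452 of the collagen TPM, FACIT genes 16.5% ± 0.0692, beaded genes 10.4% ± 0.0582 and network genes 4.36% ± 0.197. The smaller classes held 2.18% ± 0.266 (Col26a1 with Col28a1), 1.47% ± 0.109 (multiplexins), 0.811% ± 0.0156 (transmembrane) and 0.236% ± 0.0224 (Col7a1; SD, n = 2 in each case). The 4 highest chains, Col2a1, Col1a1, Col1a2 and Col3a1, made up 53.7% ± 0.322 of all collagen TPM (SD, n = 2) and ranked 61, 76, 95 and 96 among all protein-coding genes. As the RNA came from whole tissue, fewer cells that express a chain and less RNA per cell cannot be told apart.

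**Figure D2:**
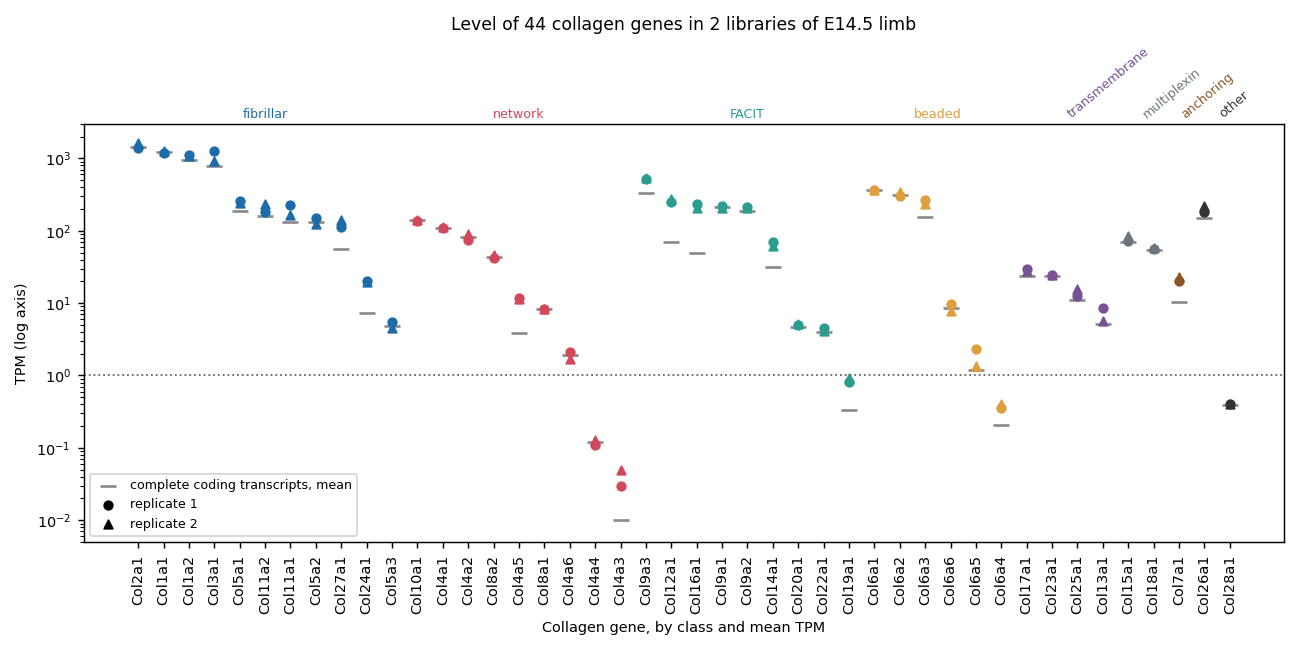
TPM (log axis) of each of the 44 collagen genes in replicate 1 (circles) and replicate 2 (triangles), grouped by class and ordered by mean, with a grey bar at the mean TPM of complete coding transcripts alone and a dotted line at 1 TPM. The 4 highest chains are fibrillar, 5 genes lie below the line, and the grey bar lies far below the symbols for Col12a1, Col16a1, Col24a1 and Col4a5.

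Gene TPM here sums over every annotated transcript, and short or incomplete models with few reads can add much to it. Per complete coding transcripts alone (models with a full reading frame in GENCODE M21), 20 of the 39 chains kept at least 90% of their TPM and 7 kept less than 50%. These 7 were Col16a1 with 22.2%, Col12a1 with 27.0%, Col4a5 with 33.1%, Col24a1 with 36.1%, Col27a1 with 44.7%, Col7a1 with 48.0% and Col14a1 with 48.0%. By read count the complete transcripts of the same genes held 43.6%, 72.1%, 49.0%, 80.1%, 68.9%, 95.2% and 75.6%. Levels on that stricter basis are given beside the gene TPM for the detected chains where they differ by more than 1.5 times. On that basis Col12a1 moved from rank 8 to 20 and Col16a1 from 11 to 23 among the chains. The order of the 39 chains was nearly the same on both bases (Spearman rho 0.954 across genes, which share libraries and are no replicates; a description).

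Among the fibrillar chains, those of cartilage and those of general connective tissue stood side by side. Col2a1 (ENSMUSG00000022483, chromosome 15, 97975602 to 98004695, minus strand), the chain of type II collagen, had 1369 and 1622 TPM, a mean of 1496 ± 179 (SD, n = 2). Col1a1 (ENSMUSG00000001506, chromosome 11, 94936224 to 94953042, plus strand) had 1181 and 1283 TPM, a mean of 1232 ± 71.9 (SD, n = 2), and Col1a2 (ENSMUSG00000029661, chromosome 6, 4504814 to 4541544, plus strand), the other chain of type I collagen, had 1100.2 and 1075 TPM, a mean of 1088 ± 17.8 (SD, n = 2). Col3a1 (ENSMUSG00000026043, chromosome 1, 45311538 to 45349706, plus strand), the chain of type III collagen of elastic tissues, had 1262 and 906 TPM and the widest spread of the 4, a mean of 1084 ± 252 (SD, n = 2). Ranges of the 4 genes over the libraries overlapped only in part: Col2a1 lay above the other 3 in both libraries, and Col3a1 was second in replicate 1 and last in replicate 2. With complete transcripts alone Col3a1 had 888 and 704 TPM, below Col1a2 at 985 and 930 TPM, and was last of the 4 in both libraries. Its SD was then 130 TPM, below that of Col2a1 at 166 TPM.

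Type I collagen joins α1 and α2 chains, and the messages of Col1a1 and Col1a2 did not differ beyond the spread, with a difference of 0.18 (95% interval -0.45 to 0.81) on the log2(TPM + 1) scale. These intervals come from a limma fit across all genes with moderated variances, and a pair is called different where its 95% interval leaves out 0. By this rule 14 of 23 chosen pairs of chains differed, against 85.1% of all pairs of protein-coding genes whose mean was 1 TPM or more; the difference between these shares was not tested. Among the 23 is a pair below 1 TPM, Col4a3 with Col4a4. All 14 were also called with complete coding transcripts alone, in the same direction. By CPM (read counts scaled by library size but not by length) Col4a1 with Col4a2, Col4a3 with Col4a4, Col9a1 with Col9a2 and Col17a1 with Col7a1 were called as well, and Col9a1 with Col9a3 was not.

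The minor fibrillar chains, which join or start the major fibres, had lower TPM in both libraries than any of these 4. Col5a1 had 253 and 243 TPM and Col5a2 149 and 125 TPM, the main chains of type V collagen, and Col5a3, its rarer α3 chain, 5.55 and 4.48 TPM. Col5a1 exceeded Col5a2 by 0.85 (95% interval 0.32 to 1.39) and Col5a3 by 5.38 (95% interval 4.88 to 5.88) on the log2(TPM + 1) scale. Col3a1 and Col5a2 are neighbours on chromosome 1, tail to tail with 24614 bases between them, and differed by 2.96 (95% interval 2.32 to 3.59) on that scale. The cartilage chains Col11a1 and Col11a2 of type XI collagen had 227 and 167 TPM and 179.9 and 233 TPM. Their order turned between the libraries, and their difference of -0.07 (95% interval -0.68 to 0.54) on the log2(TPM + 1) scale did not leave out 0. Col2a1, which also supplies a chain to type XI collagen, exceeded Col11a1 by 2.93 (95% interval 2.28 to 3.57) on that scale. Col27a1, a cartilage fibrillar chain with a shorter helix, had 111 and 139 TPM, of which 50.3 and 61.9 TPM lay in complete transcripts. Its structural relative Col24a1 had 19.9 and 19.8 TPM, of which 7.84 and 6.53 TPM lay in complete transcripts, and was lower than Col27a1 by a log2(TPM + 1) difference of -2.59 (95% interval -3.08 to -2.09).

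In the network class, type IV collagen of basement membranes was carried by Col4a1 and Col4a2. Col4a1 had 109.8 and 112 TPM and Col4a2 73.97 and 88.8 TPM, and their difference of 0.45 (95% interval -0.06 to 0.95) on the log2(TPM + 1) scale did not leave out 0. Col4a5, found in fewer basement membranes, had 11.8 and 11.3 TPM, of which 4.47 and 3.16 TPM lay in complete transcripts, and Col4a6 had 2.13 and 1.68 TPM. Col4a1 exceeded Col4a5 by 3.16 (95% interval 2.70 to 3.61), and Col4a5 exceeded Col4a6 by 2.11 (95% interval 1.68 to 2.55), on the log2(TPM + 1) scale. With complete transcripts alone these became 4.55 (95% interval 4.08 to 5.02) and 0.72 (95% interval 0.31 to 1.14). Col4a3 and Col4a4, the chains of the mature kidney filter, were near 0: Col4a4 had 0.11 and 0.13 TPM from 82 and 89 counts, and Col4a3 had 0.030 and 0.050 TPM from 15 and 3 counts. Their difference of -0.11 (95% interval -0.59 to 0.38) on the log2(TPM + 1) scale is compressed by the added 1 at such levels.

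The 6 type IV genes lie in pairs on the chromosomes, head to head. The gene models of Col4a1 and Col4a2 overlap by 22 bases at their starts on chromosome 8, those of Col4a3 and Col4a4 are 71 bases apart on chromosome 1, and those of Col4a5 and Col4a6 are 1308 bases apart on chromosome X. Around the starts of Col4a1 and Col4a2 the sequence (RefSeq, GRCm38.p6, chr8:11312801-11312830, plus strand) is shown because 22 bases, in capitals, are transcribed in both directions.
Col4a1 and Col4a2 starts: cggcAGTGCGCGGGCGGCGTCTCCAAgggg
Of these head-to-head pairs, Col4a1 and Col4a2 did not differ beyond the spread, Col4a3 and Col4a4 were both under 1 TPM, and Col4a5 differed from Col4a6.

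The other network chains have short helices. Col10a1, the chain of hypertrophic cartilage, had 137 and 143 TPM. Col8a2 had 41.8 and 46.9 TPM and Col8a1 8.16 and 8.21 TPM, the chains of type VIII collagen of vessel walls and of the cornea. Col8a1 was below Col8a2 by a log2(TPM + 1) difference of -2.30 (95% interval -2.74 to -1.86), and Col10a1 was above Col8a1 by 3.94 (95% interval 3.48 to 4.40).

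FACIT chains were led by Col9a3 of type IX collagen, which decorates the type II fibres of cartilage. Col12a1 and Col16a1 ranked above the type IX chains Col9a1 and Col9a2 by gene TPM, and below them with complete transcripts alone. Col9a3 had 514 and 543 TPM, of which 319.8 and 338 TPM lay in complete transcripts, Col9a1 had 223 and 206 TPM and Col9a2 214 and 203 TPM. The type IX molecule joins 1 chain of each gene, and Col9a1 and Col9a2 did not differ beyond the spread (0.04, 95% interval -0.49 to 0.57, on the log2(TPM + 1) scale). Col9a3 was above Col9a1, with a Col9a1 minus Col9a3 difference of -1.30 (95% interval -1.86 to -0.74), or -0.63 (95% interval -1.16 to -0.10) with complete transcripts alone. Col2a1 exceeded Col9a1 by 2.79 (95% interval 2.19 to 3.40) on that scale. Col12a1, abundant in tendon and the sheath of cartilage, had 246 and 276 TPM, of which 69.97 and 71 TPM lay in complete transcripts. Col14a1, its relative in skin and tendon, had 69.2 and 62.5 TPM, of which 35.9 and 27.4 TPM lay in complete transcripts. Col12a1 exceeded Col14a1 by 1.97 (95% interval 1.45 to 2.49) on the log2(TPM + 1) scale, or by 1.14 (95% interval 0.66 to 1.63) with complete transcripts alone. Col16a1, found in skin and cartilage, had 236 and 208 TPM, of which 48.6 and 50.03 TPM lay in complete transcripts. Col20a1 had 4.99 and 5.1 TPM; its model overlaps BX649560.1 (4.86 and 4.34 TPM) on the same strand, so its level is uncertain. Col22a1, a chain of tissue junctions such as that of muscle with tendon, had 4.57 and 4.09 TPM. Col19a1, next to Col9a1 on chromosome 1 with 9205 bases between their ends, had 0.82 and 0.93 TPM from 293 and 301 counts. On the opposite strand the models of Col9a3 and Tcfl5, Col10a1 and Nt5dc1, Col18a1 and Slc19a1, and Col5a1 and 2810430I11Rik overlap, and whether the counting used the strand is not stated in the labels or file headers. Slc19a1 had 39.1 and 65.9 TPM, a level near that of Col18a1. Tcfl5 had 1.47 and 1.69 TPM, Nt5dc1 4.88 and 4.31 TPM and 2810430I11Rik 2.92 and 3 TPM, far below the chains they overlap.

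Type VI collagen, the beaded class, was carried by its 3 classical chains. Col6a1 had 369 and 363 TPM, Col6a2 303 and 339 TPM and Col6a3 268 and 236 TPM, of which 147 and 165 TPM lay in complete transcripts. Col6a1 and Col6a2, tandem neighbours on chromosome 10 with 85161 bases between them, did not differ beyond the spread (0.19, 95% interval -0.37 to 0.75, on the log2(TPM + 1) scale). The difference of Col6a1 from Col6a3 was 0.54 (95% interval -0.01 to 1.10) over all transcripts and was called with complete transcripts alone, at 1.23 (95% interval 0.70 to 1.75). The 3 further chains of type VI collagen lie side by side on chromosome 9 and can stand in for Col6a3. Col6a6 had 9.59 and 7.67 TPM, Col6a5 2.32 and 1.36 TPM, of which 1.27 and 1.1 TPM lay in complete transcripts, and Col6a4 0.35 and 0.40 TPM from 130 and 124 counts. Counts of Col6a5 and Col6a6 were not whole (over 0.005 from a whole number), the only 2 of 44 members for which this held, so reads were shared between genes and their levels are uncertain. Counts in replicates 1 and 2 were 910.5 and 703.34 for Col6a5 and 6164.5 and 4573.66 for Col6a6. In each library the fractions of these 2 genes add to a whole count. How many reads were shared is not given. Col6a3 exceeded Col6a6 by 4.72 (95% interval 4.21 to 5.23) on the log2(TPM + 1) scale.

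Among the transmembrane chains, Col17a1, which holds basal epidermal cells to the basement membrane, had 29.4 and 27.6 TPM, Col23a1 24.5 and 24.1 TPM, Col25a1, known from motor nerve contact with muscle, 12.6 and 15.7 TPM and Col13a1, a chain of the nerve-muscle junction, 8.48 and 5.71 TPM. All 4 were detected, and Col13a1 was below Col23a1 by a log2(TPM + 1) difference of -1.66 (95% interval -2.16 to -1.17). Col7a1, whose anchoring fibrils start on the other side of the same basement membrane, had 20.1 and 23 TPM, of which 10.5 and 10.2 TPM lay in complete transcripts. Col17a1 and Col7a1 did not differ beyond the spread over all transcripts (0.39, 95% interval -0.05 to 0.83, on the log2(TPM + 1) scale) and did with complete transcripts alone (1.14, 95% interval 0.72 to 1.56). The multiplexins, basement membrane chains with sugar side chains, were Col15a1 with 71.5 and 83.3 TPM and Col18a1, the source of endostatin, with 55.3 and 58 TPM, a difference of 0.44 (95% interval -0.05 to 0.93) on that scale that did not leave out 0. Outside these classes Col26a1 had 181 and 216 TPM and Col28a1 0.41 and 0.40 TPM from 116 and 113 counts.

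**Figure D3:**
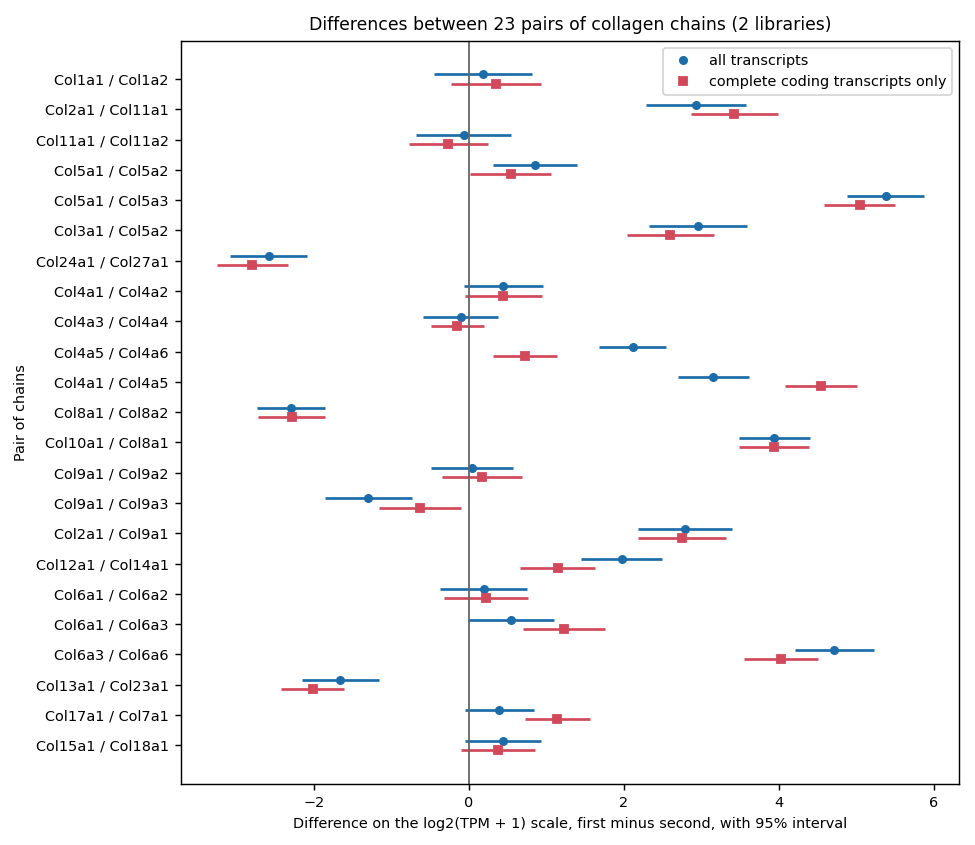
Difference between the chains of 23 pairs on the log2(TPM + 1) scale, first chain minus second, with 95% intervals from the limma fit, over all transcripts (blue circles) and over complete coding transcripts alone (red squares). Intervals of 14 pairs leave out 0 over all transcripts and those of 16 pairs over complete transcripts, where Col6a1 with Col6a3 and Col17a1 with Col7a1 join.

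Ordered by mean TPM, the 39 detected chains form 38 steps between neighbours, and neighbours are near each other by construction. At 4 steps the 95% interval of the log2(TPM + 1) difference left out 0. These were from Col3a1 down to Col9a3 (1.02, 95% interval 0.36 to 1.67), from Col8a2 down to Col17a1 (0.62, 95% interval 0.17 to 1.07), from Col24a1 down to Col25a1 (0.47, 95% interval 0.02 to 0.91) and from Col22a1 down to Col4a6 (0.88, 95% interval 0.44 to 1.32). With complete transcripts alone the order of Col24a1 and Col25a1 was the reverse. Col24a1 then had 7.84 and 6.53 TPM and Col25a1 9.45 and 12.34 TPM, so this step depends on the short Col24a1 models. At the other 34 steps the neighbours did not differ beyond their spread.

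Between the libraries 1 of 39 chains was past 1.5-fold in TPM, against 9.27% of protein-coding genes whose mean was 1 TPM or more. The median absolute log2 TPM ratio was 0.16 over the chains and 0.22 over those genes. That 1 chain was Col6a5, with a log2 TPM ratio of replicate 2 over replicate 1 of -0.77, and Col13a1 (-0.57), Col3a1 (-0.48) and Col11a1 (-0.44) followed. By read count (CPM, counts scaled by library size and TMM factors) no chain was past 1.5-fold, and the log2 CPM ratio was -0.26 for Col6a5, -0.35 for Col3a1 and -0.26 for Col11a1. The retained-intron transcript Col6a5-202 of 779 bases held 45.3% and 18.8% of the gene's TPM in replicates 1 and 2, and 5.02% and 1.403% of its counts. Of the 39 chains 18 were higher in replicate 2 and 21 in replicate 1.

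For 5 chains the log2 TPM ratio and the log2 CPM ratio differed by over 0.2. Col6a3 was lower in replicate 2 by TPM (-0.18) and higher by CPM (0.20), with 104575 and 111070 counts and a deposited effective length of 5208 and 6754 bases. There Col6a3-206, a retained-intron model of 646 bases, held 36.9% and 8.18% of the gene's TPM and 3.17% and 0.508% of its counts in replicates 1 and 2. The others were Col6a5, Col13a1 (-0.57 by TPM and -0.34 by CPM), Col7a1 (0.20 and -0.03) and Col24a1 (-0.01 and -0.23). Both ratios had the same sign in 35 chains; Col6a3, Col5a1, Col7a1 and Col23a1 were the exceptions.

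**Figure D4:**
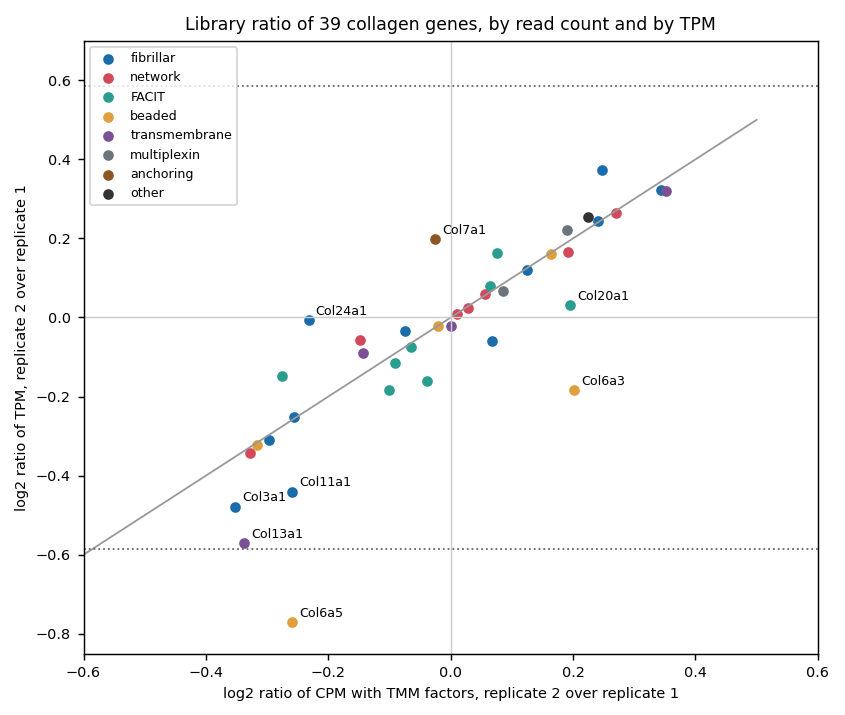
Log2 ratio of TPM, replicate 2 over replicate 1, against the log2 ratio of CPM with TMM factors for the 39 detected chains, coloured by class, with the line of equal ratios and dotted lines at 1.5-fold. Most chains lie along the line, Col6a5 alone is past a dotted line, and Col6a3 lies below the line of equal ratios with opposite signs.

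Among marker genes of the tissues that make collagen, those of cartilage and the keratins of epidermis each moved one way between the libraries. Bone genes moved both ways, and so did those of the other lists below, although their sums changed little. In replicate 2, 4 tendon and fibroblast genes were higher and 3 lower, from Mkx (log2 TPM ratio 0.74) to Tnmd (-0.45). Of the endothelium and pericyte genes 2 were higher and 4 lower. Of the muscle genes 1 was higher, Myod1 (0.45), and 3 were lower, the most Ttn (-0.67). Over protein-coding genes whose mean was 1 TPM or more, the median log2 TPM ratio of replicate 2 over replicate 1 was 0.03. The 9 cartilage genes other than collagens were all detected (median 91.97 TPM, led by Matn1 and Snorc), and all 9 were higher in replicate 2, their sum going from 993 to 1264 TPM. Cartilage collagens did not move one way: by log2 TPM ratio Col2a1 was at 0.24, Col11a2 at 0.37, Col27a1 at 0.32, Col9a3 at 0.08, Col10a1 at 0.06, Col9a2 at -0.07, Col9a1 at -0.12 and Col11a1 at -0.44. The 5 epidermis genes (median 155 TPM, led by Krt5 and Krt14) were all lower in replicate 2, from a sum of 991 to 677 TPM, beside Col17a1 at -0.09 and Col7a1 at 0.20. Trp63 of this list hardly changed, at 22.9 and 22.6 TPM (log2 TPM ratio -0.02), so the fall lay in the keratins. Of 6 bone genes (median 28.2 TPM, led by Ibsp and Spp1) 5 were detected, Bglap being at 0.79 and 0.82 TPM, and the sum of all 6 went from 259.8 to 219 TPM beside Col1a1 at 0.12. Ibsp and Spp1 were lower in replicate 2 (log2 TPM ratios -0.73 and -0.41), whereas the other 3 detected bone genes were higher, and the median ratio of the 5 was 0.35. The 7 tendon and fibroblast genes (median 84.9 TPM, led by Lum and Dcn) summed to 1160 and 1142 TPM, the 6 endothelium and pericyte genes (median 41.8 TPM, led by Acta2 and Pdgfrb) to 439 and 439 TPM and the 4 muscle genes (median 107 TPM, led by Acta1 and Myog) to 903 and 885 TPM, with every member detected. None of these markers was at 0, and their part in the library differences of the chains was not tested.

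At least 20% of a gene's TPM in a second transcript, in both libraries, was found for 16 of 39 collagen genes, against 24.4% of protein-coding genes whose mean was 1 TPM or more. In 14 genes the leading transcript held at least 90% in both libraries. The leading transcript was a complete coding one in 34 genes; in Col12a1, Col14a1, Col16a1, Col24a1 and Col4a5 it was not. The same transcript led in both libraries in 36 genes, all but Col13a1, Col24a1 and Col7a1.

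Col2a1 has a well-known alternative exon, exon 2, which codes for a cysteine-rich domain of the N-terminal propeptide; chondroprogenitors and non-cartilage cells mostly keep it (type IIA) and mature chondrocytes skip it (type IIB). It is printed with its 10 cysteine codons in capitals (GENCODE M21, GRCm38, chr15:98000403-98000606, minus strand).
Col2a1 alternative exon: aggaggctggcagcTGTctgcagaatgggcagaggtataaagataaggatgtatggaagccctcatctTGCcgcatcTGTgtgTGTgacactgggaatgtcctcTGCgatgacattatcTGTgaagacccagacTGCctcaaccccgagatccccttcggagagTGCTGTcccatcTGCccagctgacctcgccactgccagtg
Col2a1-202, which lacks this exon of 204 bases, held 74.7% and 70.1% of the gene's TPM in replicates 1 and 2. Col2a1-201, which has it, held 22.02% and 26.01%, or 302 and 422 TPM. In each library the form without the exon was the higher one.

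Col9a1 has a long form from an upstream start and a short form from a downstream start, and only the long form carries the large N-terminal domain. Col9a1-201, the long form of 921 codons, held 66.5% and 74.3% of TPM, and Col9a1-202, the short form of 680 codons, 32.5% and 24.7%. The long form was the higher one in both libraries. The 120 bases before each RefSeq start (RefSeq windows, GRCm38.p6, chr1:24177490-24177609 and chr1:24195083-24195202, plus strand) are shown because the data separate the transcripts that begin there or nearby; capitals mark a match to CCAAT. In GENCODE M21 the short form begins at 24195187, inside the second stretch, and the marked letters span that position.
Col9a1 upstream start: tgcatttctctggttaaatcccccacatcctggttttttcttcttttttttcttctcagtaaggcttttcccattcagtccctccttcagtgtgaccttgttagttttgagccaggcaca
Col9a1 downstream start: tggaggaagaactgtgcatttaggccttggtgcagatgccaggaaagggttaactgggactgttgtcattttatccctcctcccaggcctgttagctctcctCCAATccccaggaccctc
Col18a1 also has alternative starts, and Col18a1-202, which begins at the upstream one, held 92.5% and 92.1% of TPM.

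**Figure D5:**
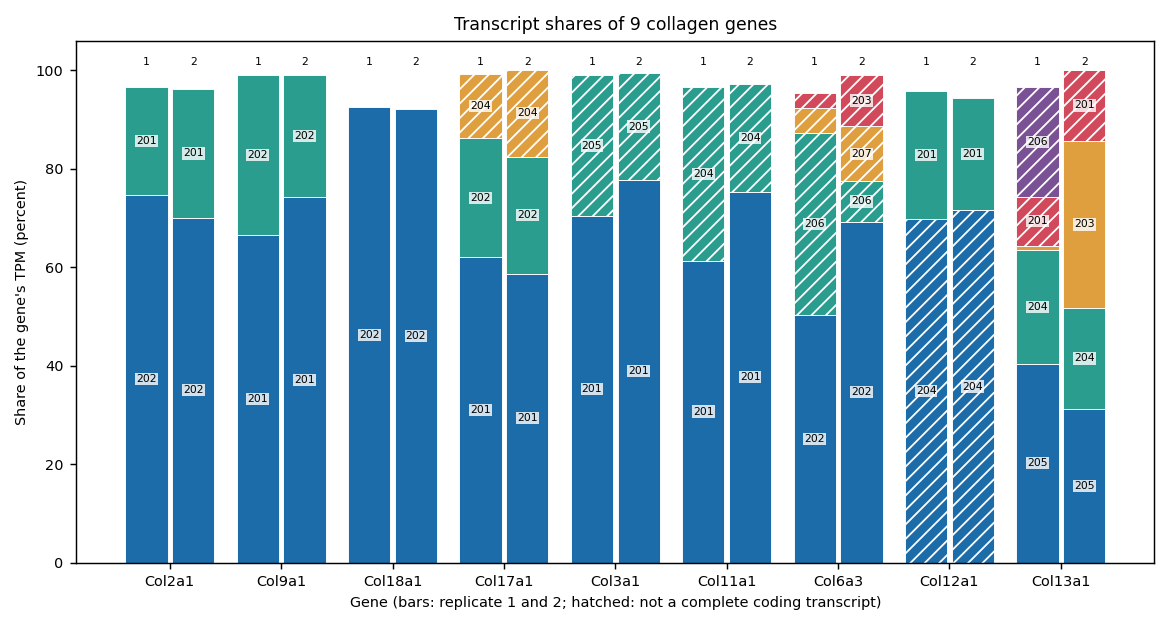
Share of each gene's TPM (percent) by transcript in replicate 1 and 2 for 9 collagen genes, with transcripts that hold a mean of at least 5% drawn and numbered by their model, and hatching on models that are not complete coding transcripts. The order of Col2a1-202 over Col2a1-201 and of Col9a1-201 over Col9a1-202 is the same in both libraries, Col6a3-206 holds 36.9% and 8.18% in replicates 1 and 2, and Col12a1 is mostly a short incomplete model.

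Several other splits rest on short or non-coding models. Col12a1-204, a model of 1784 bases without an annotated start, held 69.7% and 71.5% of TPM and 25.6% and 27.5% of counts. Col16a1-207, a processed transcript of 833 bases, held 45.4% and 42.4% of TPM and 11.6% and 9.86% of counts. Col3a1-205 of 737 bases held 28.7% and 21.7% of TPM and 3.93% and 2.602% of counts, and Col11a1-204, annotated for nonsense-mediated decay, 35.3% and 21.8% of TPM. Col13a1 is spliced in many ways, and the shares of its models were not stable between the libraries. In replicates 1 and 2 Col13a1-203 held 0.89% and 34.02% of TPM, from 16.1 and 381 counts. Col13a1-206 held 22.4% and 0%, from 143 and 0 counts. How far these shares reflect splicing was not tested. Between complete coding models, Col17a1-201 held 61.99% and 58.7% and Col17a1-202 24.1% and 23.8% of TPM, and Col15a1-203 44.8% and 43.8% and Col15a1-202 39.6% and 39.3%. By counts the order of the Col15a1 models was the reverse. Col15a1-203, of 1755 bases, held 23.6% and 23.3% of counts, and Col15a1-202, of 5172 bases, 66.7% and 67.6%.

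Promoter windows of RefSeq (300 bases, 250 of them before the start; GRCm38.p6) were matched for 35 of 44 genes, in 38 windows. Letters were searched on both strands. GGGCGG, the GC box core, was in 23 of the 38 windows (60.5%) and in 35.7% of all 32851 windows. The windows of Col4a1 and Col4a2 share 78 bases, and the GGGCGG in the stretch printed for their starts lies in both. TATAAA was in 5 (13.2%, against 13.6%), in the windows of Col10a1, Col11a2, Col13a1, Col17a1 and Col3a1. CCAAT was in 13 (34.2%, against 37.4%). A match describes the letters of a window and no binding.

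Messages of most genes listed for the making, processing and binding of collagens were detected. All 18 genes of chain modification and folding were detected, with a median of 107 TPM, led by Serpinh1, the collagen chaperone HSP47, at 1065 and 1277 TPM and Ppib, a prolyl isomerase, at 637 and 481 TPM. All 11 genes of export and processing were detected, with a median of 46.0 TPM, led by Pcolce, the enhancer of C-propeptide cleavage, at 222 and 268 TPM and Bmp1, the C-proteinase, at 199.6 and 236 TPM. The 5 crosslinking oxidases were all detected, with a median of 88.3 TPM, led by Lox at 126 and 148 TPM and Loxl2 at 97.5 and 111 TPM. Of 9 collagen receptors 7 were detected, with a median of 17.5 TPM, led by the integrin subunit Itgb1 at 158 and 136 TPM and the discoidin domain receptor Ddr2 at 53.4 and 55.7 TPM. Lair1 of leukocytes at 0.39 and 0.35 TPM and Gp6 of platelets at 0.040 and 0.080 TPM were under 1 TPM. Against these medians stands that of all protein-coding genes, 5.84 TPM, and 62.8% of those genes were detected by the same rule.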

How the data were processed

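Polyadenylated RNA longer than 200 nucleotides was sequenced as stranded paired reads of 101 bases in 2 libraries of embryonic limb (day 14.5), per the labels. The authors deposited a gene and a transcript table per library on mm10 with GENCODE M4, per the text file beside the tables; the program was not given in the sources used here. Per the file headers the tables hold expected counts (estimated counts that need not be whole), TPM and posterior mean TPM, and the deposited transcript tables give each transcript's share of its gene in percent. These values were used as deposited. Rows of spike-ins (ERCC), phiX and tRNA did not count toward totals. Gene names, biotypes and coding sequences came from GENCODE M21 (GRCm38); 884 of 43346 gene rows had no match, and 3 of 201 transcript rows of the chains.

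Chains were compared by an intercept-only limma (version 3.58.1) fit to log2(TPM + 1) over genes whose mean was 1 TPM or more and all 44 members, with eBayes and a trend and 5.35 degrees of freedom; no p-value over the chosen pairs was computed. Alternative scalings used TMM factors from edgeR 4.0.16 (1.01 and 0.992) and DESeq2 1.42.0 size factors (1.04 and 0.961) on rounded expected counts. Detection meant at least 1 TPM in both libraries, and library ratios are descriptions with no test. Gly-X-Y runs were counted as glycine codons (at least 5 triplets) in the longest complete coding sequence of each gene, in place of the RefSeq proteins first planned, which were not used here.

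The classes, lists and pairs, and the members themselves, were chosen with earlier results of these data known. By rule every member is named with both values, and of each list the 2 highest genes and those under 1 TPM. The result of 1 marker list is not reported here.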

Additional observations from a re-analysis of the deposited data

How the results depend on the processing

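The share of the chains in all TPM, 0.957%, became 2.73% by expected counts, 0.949% by posterior mean TPM, 1.03% without mitochondrial genes and, among complete coding transcripts only (an alternative chosen after seeing the data, as was the count per kilobase), 1.06%; with 1 library left out it was 0.955% to 0.959%. Detection stayed within 34 to 40 chains over all alternatives and was 39 without either replicate. The count of chains past 1.5-fold, 1 in TPM, was 0 by CPM with TMM factors, 0 with DESeq2 size factors, 0 past 2-fold, 0 in complete coding transcripts and 2 without a filter on low values, where Col4a3 joined Col6a5. Between 14 and 17 of 23 pairs were called. The sign turned with CPM, which is not scaled by length, for Col11a1 over Col11a2 (0.17), Col6a1 over Col6a3 (-0.067) and Col15a1 over Col18a1 (-0.26), and between the libraries for Col11a1 over Col11a2, which lay at -0.47 without replicate 1 and 0.34 without replicate 2; none of these was called over all transcripts. With CPM the call of Col9a1 against Col9a3 was lost at -0.45 (95% interval -0.91 to 0.014), and 4 pairs not called in TPM were called: Col4a1 over Col4a2 at 0.49 (95% interval 0.034 to 0.94), Col4a3 over Col4a4 at -0.74 (95% interval -1.13 to -0.34), Col9a1 over Col9a2 at 0.47 (95% interval 0.027 to 0.91) and Col17a1 over Col7a1 at 0.41 (95% interval 0.020 to 0.80). The second-isoform count of 16 was 20 at a 10% threshold and 17 and 18 with replicate 1 or 2 left out. The causes were not tested. No paired comparison of conditions was possible because there is 1 group. Both chains of a pair were measured in the same 2 libraries, and this pairing within libraries was not used for the intervals. Depth limits Col4a3, which rests on 15 and 3 counts. Short models, shared reads and overlapping genes limit the levels of the chains named with them.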
